A study of Mus musculus with 6 samples.

Results

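The crystallin genes described here are 10 genes, Cryaa, Cryab, Cryba1, Cryba2, Cryba4, Crybb1, Crybb2, Crybb3, Crygs and Crygn, of 32371 genes in a table of read counts. They were taken as a fixed list of symbols, matched to the Ensembl identifiers of the table, and all 10 were found. The table holds 6 RNA-Seq libraries from C57BL/6J mice that received an intravitreal injection of AAV2-GFP (3 libraries, the control) or AAV2-Ezh2-Y726D (3 libraries). Ezh2-Y726D is a form of the histone methyltransferase Ezh2 without methyltransferase activity. Optic nerve crush (ONC) followed the injection by 2 weeks in both groups, and the retinas were collected 3 days later. The mice were adults of both sexes aged 6 to 10 weeks. To enrich retinal ganglion cells (RGCs), dissociated cells that carried CD90.2, the surface protein encoded by Thy1, and excluded a dead cell dye were sorted. AAV2 also reaches cells other than RGCs, and endogenous Ezh2 was present in both groups. The labels do not say whether the libraries came from separate animals or from pools, so P values measure only the spread between these libraries, which may be technical.

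Crystallins are the abundant soluble proteins of the lens fibre cells, where their dense packing gives the lens its transparency and refractive power. The alpha crystallins, encoded by Cryaa and Cryab, belong to the small heat shock proteins and act as chaperones that hold partly unfolded proteins in solution. The beta and gamma crystallins share a fold of Greek key motifs and are structural proteins. The beta crystallins are grouped into acidic (Cryba) and basic (Crybb) members. Crystallin transcripts are also known from the retina, where they change after injury, and Cryab is widely expressed outside the eye.

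Total counts were between 9333244 and 22370285 in the GFP libraries and between 18215734 and 23782520 in the Ezh2-Y726D libraries. A single ribosomal RNA gene, CT010467.1, took 6.59% of the counts in GFP replicate 1, but 50.9% and 52.2% in GFP replicates 2 and 3. In the Ezh2-Y726D libraries it took between 2.55% and 16.1%. GFP replicates 2 and 3 therefore stand apart, being the shallowest as well, and values that rest on them are given with and without them. The labels were checked against Ezh2 itself, whose level was between 22.7 and 26.3 CPM with GFP and between 65.1 and 65.5 CPM with Ezh2-Y726D. CPM is the count divided by the library size, times 1e6, with library sizes scaled by the trimmed mean of M values (TMM). Transcripts of other retinal cells were abundant in the sorted cells. Summed over 12 RGC markers the level was between 546 and 603 CPM, whereas 11 rod markers summed to between 6800 and 7730 CPM and 12 Müller glia markers to between 12300 and 13700 CPM. In such bulk libraries, fewer cells of a type and less RNA per cell cannot be told apart.

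Of the 10 crystallin genes, 5 had enough counts to be tested for a difference between the groups (edgeR's quasi-likelihood test, adjusted over 18138 genes), and 3 of these were lower with Ezh2-Y726D at an adjusted P under 0.05: Cryaa, Cryab and Cryba4. No member passed the test as higher, although Crybb1 was under 0.05 before adjustment, and with DESeq2 no member was higher either. Over all genes tested, 27.5% passed, 13.6% as lower and 13.9% as higher. With a fold change over 1.5 required as well, 2 members passed, both lower (Cryaa and Cryba4), relative to 8.02% of all genes tested, 5.5% as lower and 2.52% as higher. Cryaa passed the filter on low counts only through the GFP group, where all 3 libraries were above the required 0.519 CPM of the total and no Ezh2-Y726D library was, so the count of 3 carries no weight of its own. The members not tested were Cryba1, Cryba2, Crybb2, Crygs and Crygn.

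**Figure D1:**
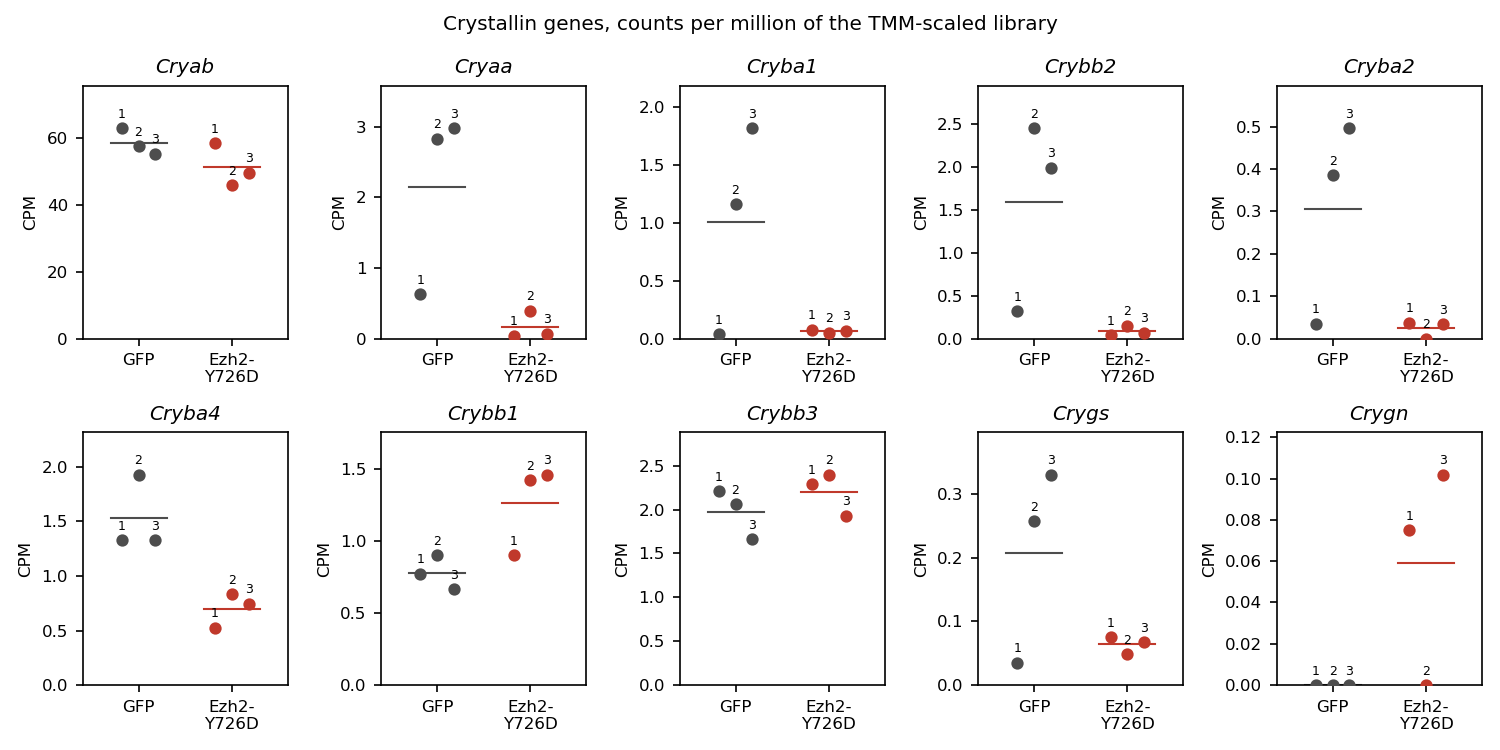
TMM-scaled CPM of each crystallin gene (y axis) in each of the 6 libraries by group, with points numbered by replicate and lines at group means. Cryaa, Cryba1 and Crybb2 were highest in GFP replicates 2 and 3, whereas Crybb3 was between 1.66 and 2.40 CPM in all libraries.

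Cryab made up most of the crystallin transcripts. It accounted for between 82.8% and 93.5% of all counts on the 10 genes in each library. Per kilobase of exon, its level was 39.6 ± 2.66 CPM (SD, n = 3) with GFP and 34.7 ± 4.37 CPM (SD, n = 3) with Ezh2-Y726D. The next level on this scale in the GFP libraries was that of Cryba4, at 1.83 ± 0.416 CPM per kilobase (SD, n = 3). It was followed by Cryaa (1.03 ± 0.634), Crybb3 (0.846 ± 0.122), Crybb1 (0.790 ± 0.122), Crybb2 (0.787 ± 0.558), Cryba1 (0.631 ± 0.567), Cryba2 (0.257 ± 0.202) and Crygs (0.238 ± 0.176), each as the mean CPM per kilobase with its SD over 3 libraries. Crygn had no count in any GFP library. From Cryba4 to Crygs the intervals of mean ± SD of neighbours in this order overlap, and the order was not tested. In the Ezh2-Y726D libraries the order after Cryab was Crybb1 (1.28 ± 0.315), Crybb3 (0.945 ± 0.105) and Cryba4 (0.836 ± 0.188), and the remaining members were each at or under 0.0798 CPM per kilobase.

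Cryab (chr9:50751325-50756636, plus strand, GRCm38) encodes alpha B crystallin. Its counts were 1798, 447 and 334 in the GFP libraries and 1558, 938 and 1465 in the Ezh2-Y726D libraries. After scaling it was at 63.0, 57.6 and 55.3 CPM with GFP and at 58.5, 45.9 and 49.6 CPM with Ezh2-Y726D. The groups overlap, since Ezh2-Y726D replicate 1 lies above GFP replicates 2 and 3. The log2 fold change was -0.21 (SE 0.0689), with an adjusted P of 0.0198 by edgeR's quasi-likelihood test. This call rests on single libraries and was lost with library totals. It held with RLE factors (adjusted P = 0.0166, edgeR) and with totals that leave out CT010467.1 (adjusted P = 0.0127, edgeR). The adjusted P was 0.276 without GFP replicate 1, 0.152 without Ezh2-Y726D replicate 2, 0.0779 without Ezh2-Y726D replicate 3, 0.188 after thinning to the shallowest library and 0.0891 with DESeq2. With library totals the direction turned, at a log2 fold change of 0.29 (adjusted P = 0.56, edgeR), where the median of all genes was 0.49. Of the exonic bases of Cryab, 17.0% overlap those of Hspb2 on the other strand, and whether counting used the strand is not given in the sources used here. Hspb2, which encodes another small heat shock protein, had between 1 and 15 counts per library and a log2 fold change of 0.20 (SE 0.439, adjusted P = 0.796, edgeR).

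Cryaa (chr17:31677807-31681733, plus strand) encodes alpha A crystallin, which is largely restricted to the lens. It had 18, 22 and 18 counts in the GFP libraries and 1, 8 and 2 counts in the Ezh2-Y726D libraries. On the CPM scale this was 0.631, 2.83 and 2.98 with GFP, relative to 0.0375, 0.391 and 0.0677 with Ezh2-Y726D. The groups do not overlap, and GFP replicates 2 and 3 stand well above GFP replicate 1. Groups that do not overlap were found for 38.6% of all genes tested, in 18.9% with lower and in 19.7% with higher values in Ezh2-Y726D. Cryaa fell by 3.37 on the log2 scale (SE 0.609), with an adjusted P of 7.93e-05 (edgeR), a test that it entered only through its GFP libraries. Where no filter was set it fell by 3.41 (adjusted P = 7.55e-13, edgeR). Without GFP replicates 2 and 3 it fell by 2.08 (adjusted P = 0.0358, edgeR), an estimate that takes the spread of the lone GFP library from the other group. Pooled over libraries, the ratio of GFP to Ezh2-Y726D was 9.54 (95% interval 4.96 to 20.2, counting error only). It was 20.2 without GFP replicate 1, 25.7 without Ezh2-Y726D replicate 2 and 4.39 without GFP replicates 2 and 3. Of its exonic bases, 13.2% overlap the antisense gene AC090881.2, which had between 0 and 3 counts per library.

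The 250 bases upstream of the start site are shown for Cryba1 and Crybb2, which like Cryaa were highest in GFP replicates 2 and 3, and for the neighbours Cryba4, which fell, and Crybb1, which did not pass the test. For Cryaa a stretch of 30 bases is shown, which lies before its RefSeq start site but inside the gene as GENCODE annotates it. The sequences are those of RefSeq on GRCm38.p6, written 5′ to 3′ on the strand of the gene, and that of Crybb1 is 245 bases long because it stops at the first exon of the GENCODE annotation. Capitals mark TGCTGA, the core of the element bound by Maf transcription factors, which drive crystallin genes in the lens, and TATAAA, the TATA box. The Cryaa stretch is chr17:31677811-31677840 on the plus strand, and that of Crybb1 is chr5:112255570-112255814 on the plus strand. The minus strand stretches are chr11:77725294-77725543 for Cryba1, chr5:113070118-113070367 for Crybb2 and chr5:112252519-112252768 for Cryba4.
Cryaa: gagcattccagcTGCTGAcggtgcagcctc
Cryba1: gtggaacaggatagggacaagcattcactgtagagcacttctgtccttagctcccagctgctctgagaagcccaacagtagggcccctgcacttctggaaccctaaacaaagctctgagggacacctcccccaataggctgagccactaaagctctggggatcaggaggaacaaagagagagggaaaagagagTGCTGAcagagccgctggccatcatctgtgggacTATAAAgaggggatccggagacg
Crybb2: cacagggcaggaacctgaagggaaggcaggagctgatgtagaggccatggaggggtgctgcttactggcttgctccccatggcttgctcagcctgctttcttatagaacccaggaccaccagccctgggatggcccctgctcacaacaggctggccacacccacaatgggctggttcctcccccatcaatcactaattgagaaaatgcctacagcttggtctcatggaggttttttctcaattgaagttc
Cryba4: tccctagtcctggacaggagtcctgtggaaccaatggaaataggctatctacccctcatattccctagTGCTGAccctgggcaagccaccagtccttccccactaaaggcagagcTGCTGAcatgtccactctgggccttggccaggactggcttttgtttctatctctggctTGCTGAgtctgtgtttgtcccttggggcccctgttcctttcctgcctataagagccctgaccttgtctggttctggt
Crybb1: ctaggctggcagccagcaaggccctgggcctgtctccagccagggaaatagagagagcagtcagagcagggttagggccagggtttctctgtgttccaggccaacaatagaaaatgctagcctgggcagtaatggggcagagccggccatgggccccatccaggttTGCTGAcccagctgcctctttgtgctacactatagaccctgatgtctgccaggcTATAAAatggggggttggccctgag

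An entry was found for 9 of the 10 members, all but Cryab. TGCTGA, read on both strands, was present in the upstream 250 bases of 8 of these 9 promoters, the exception being Crybb2. It was present in 16.1% of 32851 mouse promoters of the same length. Cryba4 held 3 matches, which begin 182, 135 and 77 bases before the RefSeq start site. The match began 108 bases before the start in Cryaa, 84 in Crybb1 and 57 in Cryba1. TATAAA was present in 3 of 9, namely Cryba1, Crybb1 and Crygs, and in 12.4% of all promoters. The core of the heat shock element, GAANNTTC, was present in none of the 9 and in 6.69% of all promoters. The last letters of TGCTGA, TGA, also begin the AP-1 motif TGANTCA. These matches describe letters in the windows and do not show binding.

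Cryba4 and Crybb1 are neighbours on chromosome 5, transcribed away from each other with 3296 bases between them. Of the pair only Cryba4 passed the test. Cryba4 (chr5:112246493-112252518, minus strand), an acidic beta crystallin, had 38, 15 and 8 counts with GFP and 14, 17 and 22 counts with Ezh2-Y726D. Scaled, it was at 1.33, 1.93 and 1.33 CPM with GFP and at 0.525, 0.832 and 0.745 CPM with Ezh2-Y726D. Every GFP library was above every Ezh2-Y726D library, including the deep GFP replicate 1. Cryba4 fell by 1.07 on the log2 scale (SE 0.302), with an adjusted P of 0.00768 (edgeR). With DESeq2 the adjusted P was 0.0676, and without GFP replicates 2 and 3 it was 0.0742 at a log2 fold change of -0.94. With library totals the log2 fold change was -0.64 (adjusted P = 0.42, edgeR).

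Crybb1 (chr5:112255815-112269585, plus strand), a basic beta crystallin, had 22, 7 and 4 counts with GFP and 24, 29 and 43 counts with Ezh2-Y726D. Its level was 0.771, 0.902 and 0.663 CPM with GFP and 0.901, 1.42 and 1.46 CPM with Ezh2-Y726D. The groups touch, since GFP replicate 2 and Ezh2-Y726D replicate 1 were nearly equal. The log2 fold change was 0.68 (SE 0.314), with an adjusted P of 0.115 (edgeR), and 0.88 with an adjusted P of 0.0483 without Ezh2-Y726D replicate 1. Whether the changes of Cryba4 and Crybb1 differ from each other was not tested.

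**Figure D2:**
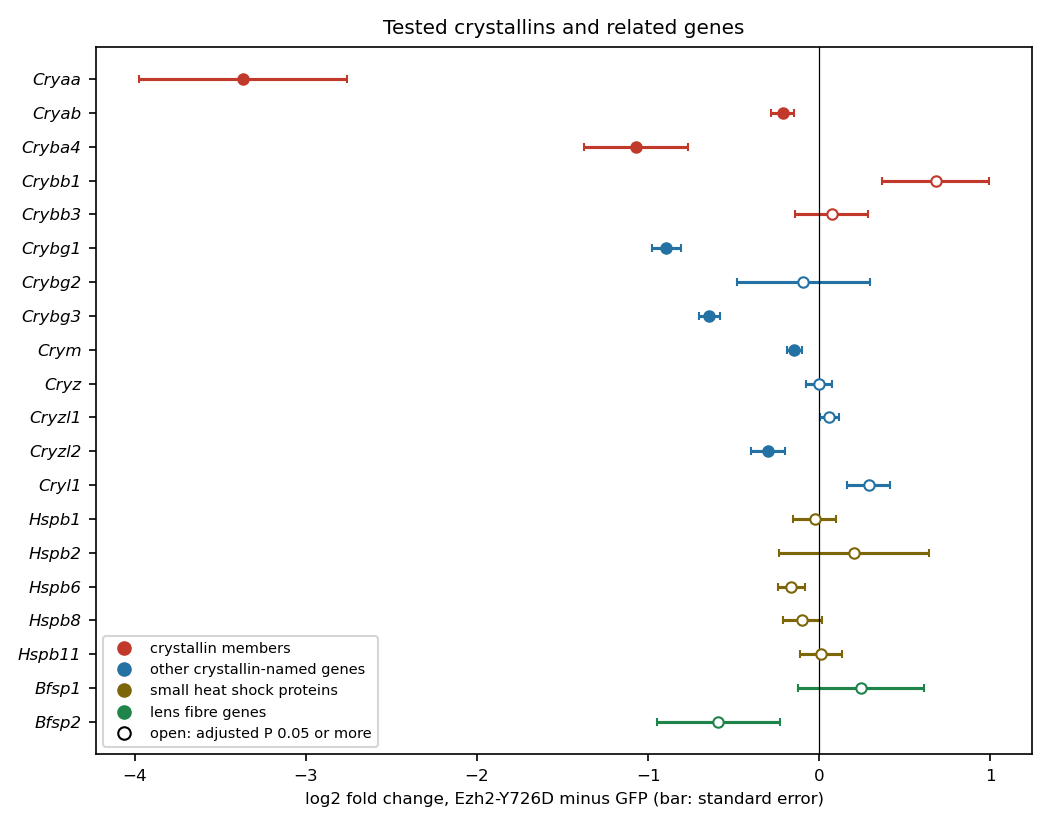
Log2 fold change (Ezh2-Y726D minus GFP) with its standard error for the tested crystallin genes (red), other crystallin-named genes (blue), small heat shock proteins (brown) and lens fibre genes (green), with open points at an adjusted P of 0.05 or more (edgeR). Cryaa is at -3.37, Cryba4 at -1.07 and Cryab at -0.21, while Crybb3 and Crybb1 are at 0.07 and 0.68 and did not pass the test.

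Crybb2 and Crybb3 form a second pair of neighbours on chromosome 5, both on the minus strand and 5721 bases apart. Crybb3 (chr5:113075839-113081584) had 63, 16 and 10 counts with GFP and 61, 49 and 57 counts with Ezh2-Y726D, that is 2.21, 2.06 and 1.66 CPM and 2.29, 2.40 and 1.93 CPM. The groups overlap, and the log2 fold change was 0.07 (SE 0.213, adjusted P = 0.859, edgeR). Crybb2 (chr5:113058258-113070117), which encodes a main beta crystallin of the adult lens, had 9, 19 and 12 counts with GFP and 1, 3 and 2 counts with Ezh2-Y726D. It was at 0.315, 2.45 and 1.99 CPM with GFP and at 0.0375, 0.147 and 0.0677 CPM with Ezh2-Y726D, so that the groups do not overlap. GFP replicates 2 and 3 were again the highest. Crybb2 missed the filter and was not tested, and its pooled ratio of GFP to Ezh2-Y726D was 12.1 (95% interval 5.08 to 34.8, counting error only). It was 28.7 without GFP replicate 1, 7.75 without GFP replicate 2 and 4.03 (1.28 to 13.7) without GFP replicates 2 and 3. Where all genes with a count were tested, its adjusted P was 6.7e-10 (edgeR), and DESeq2, with its own filter, gave 9.46e-06.

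Cryba1 (chr11:77718615-77725283, minus strand), another acidic beta crystallin, had 1, 9 and 11 counts with GFP and 2, 1 and 2 counts with Ezh2-Y726D. Its level was 0.035, 1.16 and 1.82 CPM with GFP and 0.0751, 0.0489 and 0.0677 CPM with Ezh2-Y726D. Only GFP replicates 2 and 3 were high, and GFP replicate 1 lay below all Ezh2-Y726D libraries. The pooled ratio of GFP to Ezh2-Y726D was 7.60 (95% interval 2.79 to 25.8, counting error only). It was 22.2 without GFP replicate 1 and 4.22 without GFP replicate 3. Without GFP replicates 2 and 3 the ratio turned to 0.537 (0.0114 to 4.80), from 1 count against 5, so that the difference rests on these libraries. With all libraries and the filter removed its adjusted P was 0.000119 (edgeR).

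The remaining members were near the limit of detection. Cryba2 (chr1:74889934-74893143, minus strand), an acidic beta crystallin, had 1, 3 and 3 counts with GFP and 1, 0 and 1 with Ezh2-Y726D. On the CPM scale it too was highest in GFP replicates 2 and 3, at 0.386 and 0.497, relative to 0.035 in GFP replicate 1. Its total was 7 counts with GFP, all but 1 of them from GFP replicates 2 and 3, and 2 counts with Ezh2-Y726D, so no ratio is given. Where no filter was set its adjusted P was 0.13 (edgeR). Crygs (chr16:22805203-22811577, minus strand), the gamma crystallin that persists in the adult lens, had 1, 2 and 2 counts with GFP and 2, 1 and 2 with Ezh2-Y726D. Crygn (chr5:24751003-24758008, minus strand), a crystallin related to both the beta and gamma branches, had no count with GFP and 2, 0 and 3 counts with Ezh2-Y726D. Since Crygs and Crygn did not exceed 3 counts in any library, no fold change is given for them, and a difference was not detectable at this depth. A count of 0 for Crygn allows up to 0.105, 0.386 and 0.497 CPM in the GFP libraries. The fibre cell gamma crystallins Cryga, Crygc and Crygd had at most 3 counts in any library, and Crygb, Cryge and Crygf were not found in the table by symbol.

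The members thus fell into sets with different library patterns, which were grouped after their values were seen and are given without a test. Cryaa, Cryba1 and Crybb2 together were at 0.981, 6.44 and 6.79 CPM with GFP and at 0.150, 0.587 and 0.203 CPM with Ezh2-Y726D. GFP replicate 1, with 28 counts, was above the 3 Ezh2-Y726D libraries, with 4, 12 and 6 counts, so the order of the groups held in raw counts as well as in CPM. Cryba4, Crybb1 and Crybb3 together were at 4.31, 4.89 and 3.64 CPM with GFP and at 3.72, 4.65 and 4.13 CPM with Ezh2-Y726D. For the first set the pooled ratio of GFP to Ezh2-Y726D was 9.79 (95% interval 6.17 to 16.2, counting error only). It was 23.0 without GFP replicate 1, 15.8 without Ezh2-Y726D replicate 2 and 3.42 (1.89 to 6.27) without GFP replicates 2 and 3. For the second set it was 1.05 (0.869 to 1.26), a sum over members with unlike ratios, namely 2.08 (1.42 to 3.07) for Cryba4, 0.622 (0.406 to 0.933) for Crybb1 and 0.964 (0.737 to 1.26) for Crybb3.

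The first set was compared with the share of CT010467.1. GFP replicates 2 and 3, where it was 50.9% and 52.2%, held the highest levels, and of the Ezh2-Y726D libraries replicate 2, with the highest share of 16.1%, also had the highest level of the set in its group. GFP replicate 1 breaks this order, since at a share of 6.59% its level of 0.981 CPM was above that of every Ezh2-Y726D library. The second set was lowest in GFP replicate 3 (3.64 CPM), which had the highest share, but highest in GFP replicate 2 (4.89 CPM), at a share of 50.9%. Among the Ezh2-Y726D libraries the second set was also in the order of the share. Cryab was highest in GFP replicate 1 and lowest in Ezh2-Y726D replicate 2. The part of the ribosomal share in these results was not tested.

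**Figure D3:**
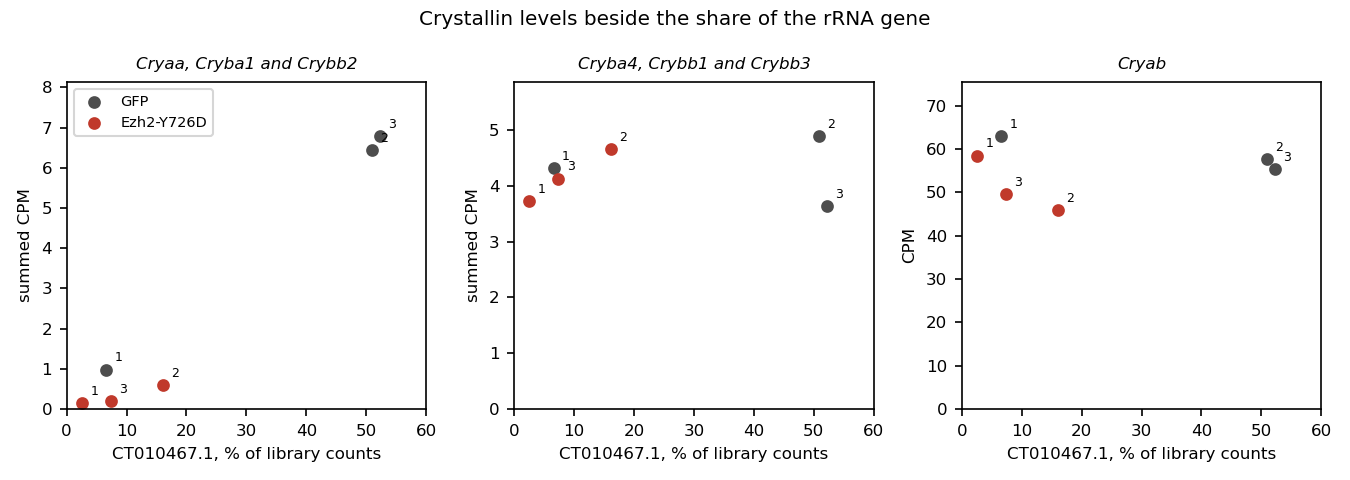
CPM of Cryaa, Cryba1 and Crybb2 together, of Cryba4, Crybb1 and Crybb3 together, and of Cryab in each library (points numbered by replicate, GFP grey, Ezh2-Y726D red) against the percentage of its counts on CT010467.1. The libraries at 50.9% and 52.2% are GFP replicates 2 and 3, and they hold the highest levels of Cryaa, Cryba1 and Crybb2 together, at 6.44 and 6.79 CPM.

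Other genes of the lens were measured beside the crystallins. A list of 13 lens genes other than crystallins, of which 11 were in the table, summed to between 2.14 and 3.64 CPM with GFP and between 1.73 and 2.13 CPM with Ezh2-Y726D. Of these, 2 passed the filter, and neither was called (0 also with DESeq2 and 0 under an unadjusted P of 0.05). Bfsp1, which encodes the beaded filament protein filensin, was at 0.659 ± 0.309 CPM with GFP and 0.736 ± 0.150 CPM with Ezh2-Y726D (SD, n = 3, adjusted P = 0.695, edgeR). Bfsp2, its filament partner phakinin, was at 0.968 ± 0.310 CPM and 0.580 ± 0.213 CPM (SD, n = 3, adjusted P = 0.254, edgeR). The lens membrane genes had few counts. Mip, the lens water channel, had 0, 1 and 1 counts with GFP and none with Ezh2-Y726D, and Lim2 had 1, 0 and 2 and none. Gja3, a gap junction protein of lens fibres, had 3, 0 and 0 counts with GFP and none with Ezh2-Y726D. Others of the list did not show this order. Lgsn had 1, 1 and 0 counts with GFP and 1, 4 and 6 with Ezh2-Y726D, and Grifin had 13, 1 and 3 and 7, 8 and 17 counts, or 0.360 and 0.410 CPM on average. The part of lens transcripts in the differences of Cryaa, Cryba1 and Crybb2 was not tested.

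The lists and neighbouring genes that follow held 74 genes that passed the test, 42 of them lower. With RLE factors, or with totals that leave out CT010467.1, none of the 74 changed direction. Where full library totals replaced TMM, the median of all genes moved to 0.49. There 25 of the 42 lower genes were above 0 and no higher gene turned. A shift of this size carries a gene with a smaller fall above 0, so turning does not set such a gene apart. Directions are given relative to the TMM scale, and the number that turned with library totals is given for each list. Counts of genes called are to be read against 13.9% higher and 13.6% lower over all genes tested.

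Other genes that carry a crystallin name were measured as well. Of 8 tested, 4 were lower and none was higher (background 13.6% and 13.9%), with a median log2 fold change of -0.12, relative to 0.0018 over all genes. Under unadjusted P, 5 passed, and DESeq2 called 3. Crybg1, a large protein with beta and gamma crystallin folds, was at 21.5, 22.8 and 23.9 CPM with GFP and 11.4, 13.6 and 11.3 CPM with Ezh2-Y726D. It fell by 0.89 on the log2 scale (SE 0.0849, adjusted P = 2.44e-09, edgeR). Crybg3 was at 72.8, 76.2 and 80.5 CPM with GFP and 43.2, 50.6 and 51.7 CPM with Ezh2-Y726D, and fell by 0.64 (SE 0.0608, adjusted P = 2.28e-09, edgeR). For both genes the groups do not overlap. Crym, the thyroid hormone binding mu crystallin, fell by 0.15 (adjusted P = 0.012, edgeR) with overlapping groups, and Cryzl2 fell by 0.30 (adjusted P = 0.0268, edgeR). With library totals Crym and Cryzl2 turned to 0.35 and 0.20. Both calls also depend on single libraries. Without GFP replicate 1 the adjusted P was 0.0993 for Crym and 0.13 for Cryzl2 (edgeR). With DESeq2 the adjusted P was 0.0129 for Crym and 0.174 for Cryzl2. Cryl1, Cryz, Cryzl1 and Crybg2 did not pass.

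Since the alpha crystallins are small heat shock proteins, that family was compared. Of 5 other members tested, none was called at an adjusted P under 0.05 (1 under an unadjusted P of 0.05, 0 with DESeq2), and their median log2 fold change was -0.027. Hspb1 was at 7.25 ± 0.644 CPM with GFP and 7.02 ± 0.845 CPM with Ezh2-Y726D (SD, n = 3), and Hspb8 at 8.99 ± 1.00 CPM and 8.84 ± 0.851 CPM (SD, n = 3). Hspb6 (log2 fold change -0.16, adjusted P = 0.133, edgeR), Hspb11 and Hspb2 did not pass either. Among 14 genes of the heat shock response, 1 was higher and none lower, with a median of 0.082. This was Hsp90aa1, a cytosolic chaperone, which rose by 0.13 (adjusted P = 0.0136, edgeR). Hspa8, the constitutive Hsp70, was at 670 ± 26.2 CPM and 633 ± 30.8 CPM (SD, n = 3) and did not pass.

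Transcription factors known to act on crystallin genes in the lens, or on retinal genes, were also measured, and of 14 tested, 6 were higher and 3 lower (2 of the 3 turned with library totals), with a median of 0.15, relative to 13.9% higher and 13.6% lower over all genes. Pax6, which is also a marker of amacrine cells, was at 344, 366 and 355 CPM with GFP and 473, 487 and 470 CPM with Ezh2-Y726D, and rose by 0.43 (adjusted P = 1.49e-09, edgeR). Prox1 was at 188 ± 7.20 CPM and 169 ± 5.43 CPM (SD, n = 3) and fell by 0.15 (adjusted P = 0.00621, edgeR), but was above 0 with library totals. Of 8 microglia and macrophage markers tested 6 were lower (2 turned with library totals) and 1 higher, with summed levels of 1200 to 1360 CPM with GFP and 535 to 638 CPM with Ezh2-Y726D.

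Markers of the other cells the sort could hold moved as follows, and their part in the crystallin results was not tested. Over all genes tested, 27.5% were called, 13.9% as higher and 13.6% as lower. All 7 cone markers tested were lower (Arr3 and Opn1mw turned with library totals), and 6 of 7 bipolar markers were lower and 1 higher (3 turned, among them Pcp2 and Trpm1). All 7 amacrine markers tested were higher. Of 12 Müller glia markers 4 were higher and 3 lower (2 turned), and their summed level ran from 13000 to 13700 CPM with GFP and from 12300 to 12700 CPM with Ezh2-Y726D. Of 12 genes of reactive glia 2 were higher and 5 lower, among them Lcn2, which fell by 0.50, and Gfap, which fell by 0.29, and all 5 turned with library totals. Of 11 rod markers 4 were higher and none lower. Of 12 RGC markers 2 were higher and 1 lower, and of 12 genes induced in injured RGCs 2 were higher and 3 lower, all 3 of which turned with library totals. For the retinal pigment epithelium 5 markers were tested and none was called (0 under an unadjusted P of 0.05, 0 with DESeq2), and 2 of 5 endothelial markers were lower (both turned) and none higher. Of the cornea and iris markers only Aldh1a1 was tested, and it fell by 0.24 (adjusted P = 0.000734, edgeR), but turned with library totals.

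The genes next to the crystallin genes were also measured. Of 16 tested protein-coding neighbours that are no members, 3 were higher, 1 was lower and 12 were not called, a share near the 27.5% called over all genes. Mn1, the next such gene beyond Cryba4, rose by 0.34 (adjusted P = 0.000394, edgeR), and Tpst2, beside Crybb1, fell by 0.28 (adjusted P = 0.00255, edgeR) and turned with library totals. Grk3, the nearest other gene below Crybb2, rose by 0.23 (adjusted P = 0.000709, edgeR), and Cdk5r2, beside Cryba2, rose by 0.33 (adjusted P = 0.00243, edgeR). The neighbours of Cryaa, U2af1 and Sik1, were at -0.04 and -0.09 and did not pass.

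Over the 6 libraries, the genes with the pattern most like the mean of Cryba4, Crybb1 and Crybb3 were Fam102b (Pearson's r = 0.994), Gm38381 (0.990), Ess2 (0.979), Gm37611 (0.978) and Lactb (0.974). These were the highest of 16043 candidates, with log2(CPM + 0.5) centred over libraries. The mean joins members with unlike log2 fold changes (-1.07 for Cryba4, 0.68 for Crybb1 and 0.07 for Crybb3). A gene like the mean is therefore not one that behaves like each of them. The points share depth and library scaling, and no P value is given. Fam102b was at 23.3, 25.1 and 21.7 CPM with GFP and at 20.9, 23.8 and 22.6 CPM with Ezh2-Y726D, a pattern in which replicate 2 is highest in each group.

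**Figure D4:**
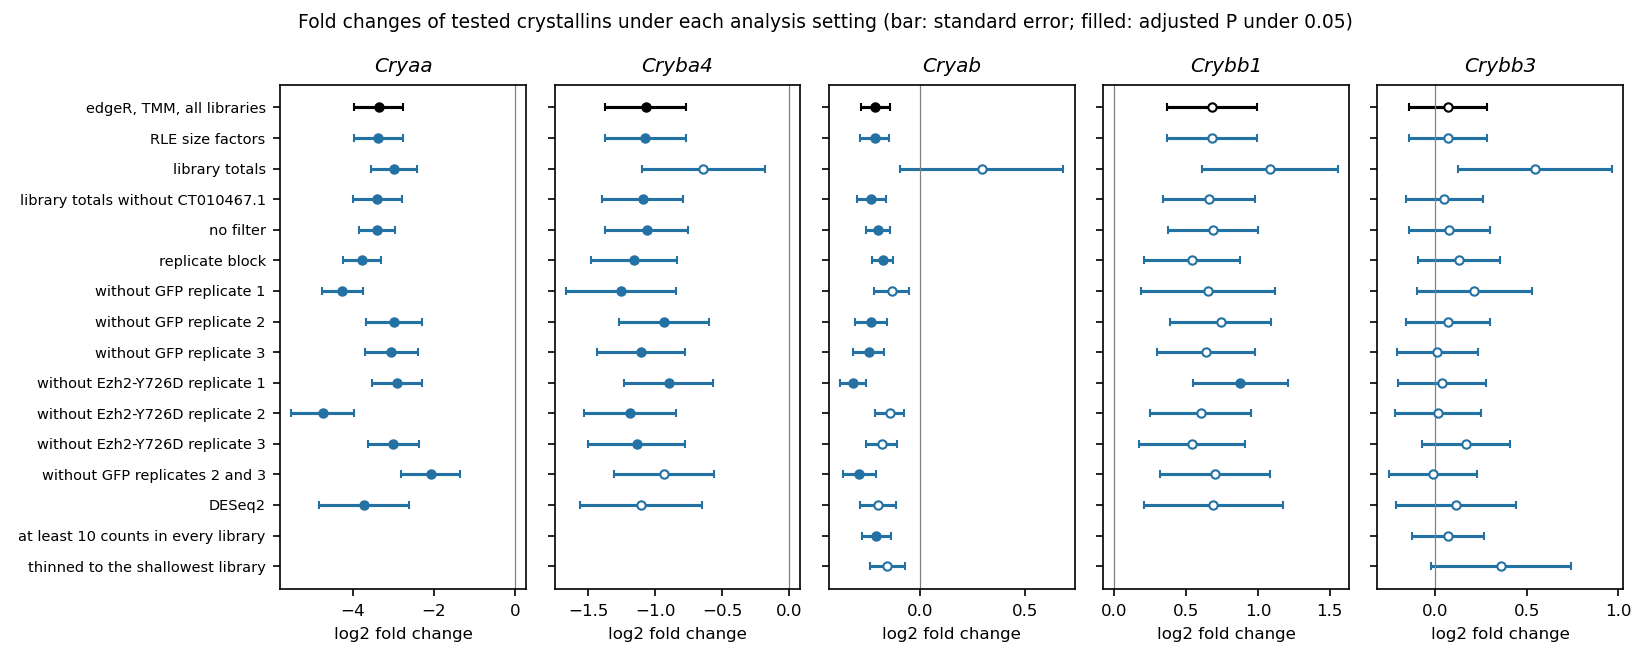
Log2 fold change (Ezh2-Y726D minus GFP) of the tested crystallin genes under each processing alternative, with bars for standard errors and filled points at an adjusted P under 0.05. Cryaa stays between -4.75 and -2.08 in all 13 alternatives in which it was tested, whereas Cryab is above 0 only with library totals, at 0.29.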

How the data were processed

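RNA-Seq was analysed in 6 libraries, 3 per group. For each of 32371 genes the authors deposited the raw read count per library. The submitters' processing notes name STAR 2.7.0d and GRCm38, and the library kit was a stranded one for total RNA. The counting tool, annotation and strand setting are not given in the sources used here. Symbols were available for 32325 genes, and 32342 were found in GENCODE vM21, the source of coordinates. The reference annotation may differ from that of the authors.

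From the deposited counts, CPM of TMM-scaled libraries was computed, and the groups were compared by edgeR 4.0.16 (R 4.3.3) with the quasi-likelihood test, without a block, after filterByExpr (at least 10 counts, total of at least 15), with Benjamini-Hochberg adjustment over the 18138 genes left. Genes with an adjusted P under 0.05 were called. As an exact permutation test of 3 against 3 libraries cannot go below 0.1, none was used. Ratios of pooled counts have exact 95% intervals, and intervals and floors (3 counts) cover counting error only.

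The members and lists were chosen with earlier results of these data known. The genes named were all members, Ezh2, the tested genes of the lens, crystallin-named and small heat shock lists, up to 4 genes of each other list (highest or most changed), tested neighbours, and the 5 most similar patterns among genes at a mean of at least 1 CPM. Some genes outside this rule (CT010467.1, lens genes with few counts, AC090881.2) were named after their values were seen. Some further items are not reported here. The other lists were the heat shock response, transcription factors, injured RGCs, and markers of RGCs, rods, cones, bipolar and amacrine cells, Müller glia, reactive glia, retinal pigment epithelium, cornea and iris, microglia and macrophages, and endothelial cells. Alternatives were RLE factors, library totals with or without CT010467.1, DESeq2 1.42.0, other filters, a replicate block, leaving out libraries, thinning, and fold thresholds. Pooled ratios without single libraries were added after seeing the data. In simulated counts for the 18138 genes, edgeR called 178 of 200 genes changed by a log2 value of 1 (89%) and 7 unchanged genes. Of the changed genes with a mean under 30 counts, as all members but Cryab and Crybb3 have, it called 12 of 31. Counts of library pairs differed beyond sampling noise, so no library was counted as a duplicate.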

Additional observations from a re-analysis of the deposited data

How the results depend on the processing

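The count of crystallin genes called was 3 in the reported analysis and with RLE factors or with totals that leave out CT010467.1. Between 26.8% and 27.5% of all genes were called there. The count was 1 with library totals (Cryaa), where 0.358% of all genes were called. With no filter it was 5 of 10 (Cryba1 and Crybb2 added), against 15.3% of all genes. At 10 counts in every library it was 1 of the 2 testable (Cryab), against 33%. After thinning to the shallowest library (4460732 counts) edgeR called 0 of 2 tested (0 under an unadjusted P of 0.05), against 22.3% of all genes, where fewer counts were left. DESeq2 called 2 of 6 (Cryaa and Crybb2), against 19.9% of all genes. A fold change over 1.5 or over 2 left 2 (Cryaa and Cryba4), against 8.02% of all genes at 1.5. Without Ezh2-Y726D replicate 1, Cryba1 and Crybb2 were tested too. Only GFP replicates 2 and 3 held them above the filter, so their calls carry no weight of their own. The count there was 6 of 7 tested, with 5 lower and Crybb1 higher. Leaving out 1 library gave a count between 3 and 6, while between 20.7% and 25.3% of all genes were called. Without GFP replicates 2 and 3 it was 2 (Cryaa and Cryab). The value of Cryab turned to 0.29 with library totals, where the median of all genes was 0.49. Without GFP replicates 2 and 3, Crybb3 turned to -0.013 and the pooled ratio of Cryba1 to 0.537. The cause was not tested. Cryab lost its call in 6 alternatives, among them thinning (adjusted P = 0.188) and library totals (adjusted P = 0.56), and Cryba4 in 3, among them library totals (-0.64, adjusted P = 0.42). Cryaa was called in the 13 alternatives in which it was tested, with adjusted P between 7.55e-13 and 0.0358 (edgeR or DESeq2), but it had passed the reported filter only through GFP, and at 10 counts in every library or after thinning it could not be tested. It fell by 4.26 without GFP replicate 1 and by 4.75 without Ezh2-Y726D replicate 2. Depth limits Cryba2, Crygs and Crygn, which never exceeded 3 counts.

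With the replicate number as a block, the count of members called was 3, and among all genes 2675 were higher and 2548 lower, relative to 2525 and 2463 without it. Deviations of same-numbered libraries correlated at 0.106, 0.0417 and 0.0306, and those of differently numbered libraries at between -0.0643 and 0.0213. The same-numbered values were thus the highest, and a pairing by number is not settled by them. No block was used in the reported analysis because the labels do not say what the numbers mark.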
